A study of Mus musculus with 8 samples.

Results

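The circular RNAs (circRNAs) described here are those whose host gene gave rise to many of them. A circRNA was included when the gene named as its host stood in 5 or more entries of the count table, and entries with no gene name or with a bare number in its place were left out. This rule, which uses no measured value, selected 2090 of the 6315 circRNAs (33.1%), from 302 of 2833 host genes. Of the 302 hosts, 106 had 5 circRNAs, 70 had 6, 44 had 7, 29 had 8, 13 had 9 and 40 had 10 or more, up to 21 for Rere. Just outside the rule lay 160 hosts with 4 circRNAs each. The most counted circRNA held a median of 52.4% of the host's count where there were 5 and 63.3% where there were 4.

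The libraries were made from total RNA of mouse kidney, strain C57BL/6L, at 8 to 10 weeks of age. The control group (3 libraries, titled WT) comes, per the design text, from sham-operated mice. The AC group (2 libraries) is called acute-chronic in the labels, and the design text speaks of I/R, ischaemia/reperfusion. The UUO group (3 libraries) underwent unilateral ureteral obstruction, and both injuries were sampled on day 5. No transgene or other treatment is named for any group. Whether the libraries come from different animals is not stated in the labels. Each p-value therefore reflects only how these libraries vary, and part of that variation may be technical. In whole tissue, fewer cells of a type and less RNA per cell cannot be told apart.

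A circRNA is a closed loop made when the spliceosome joins the end of an exon back to the start of the same or an earlier exon. The choice of these back-splice sites can differ between molecules of 1 host transcript, so a gene can yield several loops, just as alternative splicing yields several linear isoforms. Without free ends circRNAs resist exonucleases and tend to be long-lived, and long genes with many exons have more sites at which a loop can form. The linear forms of the hosts described below encode, among others, regulators of small GTPases, of chromatin and of translation.

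The reference at hand does not match the build of the files, which pair each circRNA with a source transcript but with no position, so no circRNA sequence is printed. The RefSeq promoter windows of 4 hosts are shown as examples. Cpeb3, Tdrd3 and Ezh2 are among the 9 hosts whose summed circRNA count passed the test in both injuries, and the others of the 9 are not shown. In Dennd1b 1 circRNA passed the test of its share. Cpeb3 has 3 listed promoters and Dennd1b 2, and 1 window is shown for each host. Each window runs from 250 bases before to 50 bases after a gene start in build GRCm38.p6 and is written 5′ to 3′ on the gene's strand. The windows are chr19:37207422-37207721 (minus strand, Cpeb3), chr14:87416333-87416632 (plus strand, Tdrd3), chr6:47594981-47595280 (minus strand, Ezh2) and chr1:138963459-138963758 (plus strand, Dennd1b). Their gene starts lay 9, 56, 0 and 0 bases, in the same order, from the annotated start of a source transcript of the host's circRNAs. Capitals mark matches to the GC box GGGCGG and the CCAAT box CCAAT on either strand.
Cpeb3: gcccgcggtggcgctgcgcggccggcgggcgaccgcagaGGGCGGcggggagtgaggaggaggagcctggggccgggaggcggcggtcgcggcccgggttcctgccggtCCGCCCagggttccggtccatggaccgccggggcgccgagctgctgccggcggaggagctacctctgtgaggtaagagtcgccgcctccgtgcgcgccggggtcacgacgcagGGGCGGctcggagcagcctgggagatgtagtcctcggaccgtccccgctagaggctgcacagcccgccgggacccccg
Tdrd3: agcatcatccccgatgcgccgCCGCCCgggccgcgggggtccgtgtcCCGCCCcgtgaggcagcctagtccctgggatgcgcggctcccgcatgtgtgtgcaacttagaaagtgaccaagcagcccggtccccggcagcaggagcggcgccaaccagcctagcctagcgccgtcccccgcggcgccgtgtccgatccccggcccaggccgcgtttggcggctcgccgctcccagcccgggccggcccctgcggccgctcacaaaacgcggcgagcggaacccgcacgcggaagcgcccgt
Ezh2: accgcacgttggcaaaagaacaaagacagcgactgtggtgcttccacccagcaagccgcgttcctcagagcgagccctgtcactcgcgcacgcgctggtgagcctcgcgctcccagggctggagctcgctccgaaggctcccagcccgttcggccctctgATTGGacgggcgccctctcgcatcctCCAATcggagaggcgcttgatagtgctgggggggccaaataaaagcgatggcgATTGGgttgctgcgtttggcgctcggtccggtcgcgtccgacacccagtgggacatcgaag
Dennd1b: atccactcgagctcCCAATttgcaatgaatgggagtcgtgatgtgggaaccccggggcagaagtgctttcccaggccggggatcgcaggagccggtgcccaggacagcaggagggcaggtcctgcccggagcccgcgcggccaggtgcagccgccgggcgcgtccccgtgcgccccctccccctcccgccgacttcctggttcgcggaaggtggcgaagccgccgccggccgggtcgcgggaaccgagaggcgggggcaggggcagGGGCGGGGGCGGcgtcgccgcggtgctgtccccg
The GC box stood 3 times in the Cpeb3 window, 2 times in Tdrd3 and 2 times in Dennd1b, and CCAAT stood 3 times in Ezh2 and 1 time in Dennd1b. TATAAA, the TATA box, had no match in these 4 windows. Over 32841 mouse promoter windows of the same length, 35.7% held the GC box, 37.4% held CCAAT and 13.6% held TATAAA on either strand. The 4 windows held between 31 and 43 CpG dinucleotides, against a median of 7 over all windows.

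Total circRNA counts ranged from 40865 to 65145 per library. The selected circRNAs held 39.1%, 38.3% and 40.1% of the counts in the control libraries, 36.5% and 36.2% in AC and 37.1%, 36.9% and 36.1% in UUO. Every control library lay above every injured one, and AC and UUO overlapped. The means were 39.2 ± 0.908% (SD, n = 3) in control, 36.7 ± 0.559% (SD, n = 3) in UUO and 36.4 ± 0.201% (SD, n = 2) in AC. Each injury was set against control in a two-sided exact permutation test, and both gave p = 0.1, the smallest p that either design allows. Of 26 markers of kidney cell types listed for a check of the tissue, 3 (Klhl3 of the distal nephron, Lrp2 of the proximal tubule and Flt1 of endothelium) had circRNAs in the table. None of the 26 was a host with 5 or more circRNAs, so the circRNAs described here carry no check of the labelled tissue. The summed Klhl3 circRNA counts were 77, 143 and 96 in control, 15 and 24 in AC and 14, 29 and 18 in UUO. Those of Lrp2 were 9, 92 and 47, then 26 and 21, then 27, 25 and 13, in the same order of groups, and those of Flt1 lay between 0 and 7. Klhl3 was lower in every injured library, and its part in the results below was not tested.

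**Figure D1:**
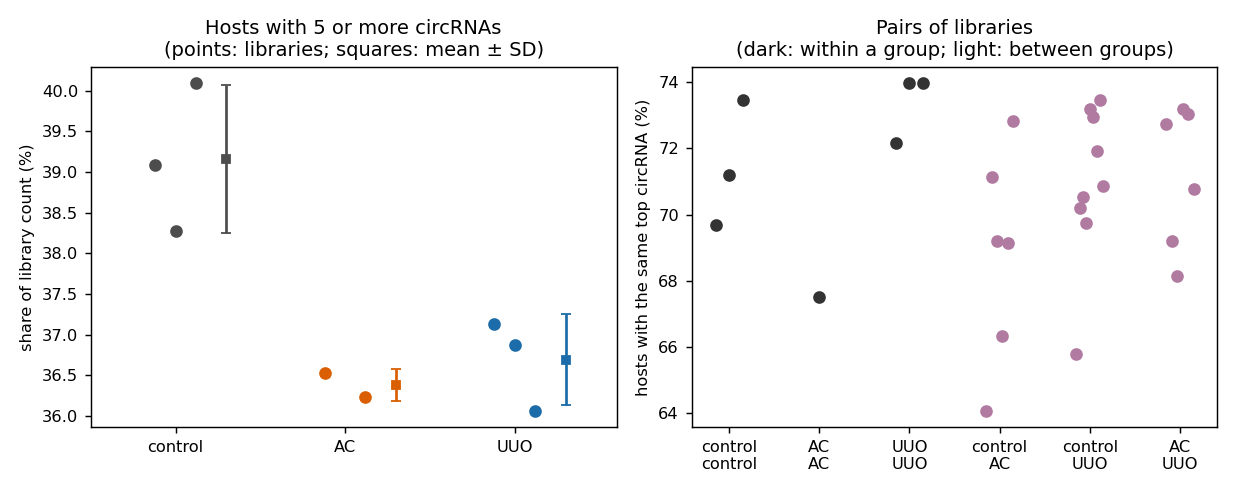
Left, share of each library's circRNA count held by hosts with 5 or more circRNAs (y axis in percent, starting above 0; points are libraries, squares and bars mean ± SD). Right, percent of hosts with the same most counted circRNA in both libraries of a pair, for pairs within and between groups; the control libraries lie highest on the left, and within-group and between-group pairs overlap on the right.

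Most of these circRNAs were rare. The median one had 15 counts over all 8 libraries together, the same as for hosts with 2 to 4 circRNAs (15) and above that of hosts with 1 (12), and 869 of 2090 (41.6%) had 10 counts or fewer. The summed count of a host had a median of 224 and ran from 13 to 7266. A column of the files headed as experimental evidence repeats the identifier of some circRNAs and is empty for the others, and the files do not say what the evidence is. It was filled for 358 of the 2090 (17.1%), and these 358 held 59.8% of the counts of the group. Over the whole table it was filled for 17.2% of circRNAs with 52.5% of the counts. In 186 hosts at least 1 circRNA had such an entry, and in 116 of the 186 the most counted circRNA did. The source transcripts of the selected hosts had a median of 22 exons in GENCODE M21, against 16 for hosts with 2 to 4 circRNAs and 13 for hosts with 1.

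Within a host, a few circRNAs held most of the count. Over the 302 hosts, the most counted circRNA held a median of 49.7% of the host's count and over 50% of it in 147 hosts. Shares were followed across groups in the 203 hosts with a summed count of at least 30 in each group, which held 94.6% of the counts of the 302. Over these, the most counted circRNA held a median of 52.0% (quartiles 40.2% and 64.2%), the next 22.2%, the third 10.7% and the fourth 5.86%, and a median of 4 circRNAs made up 90% of the count.

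**Figure D2:**
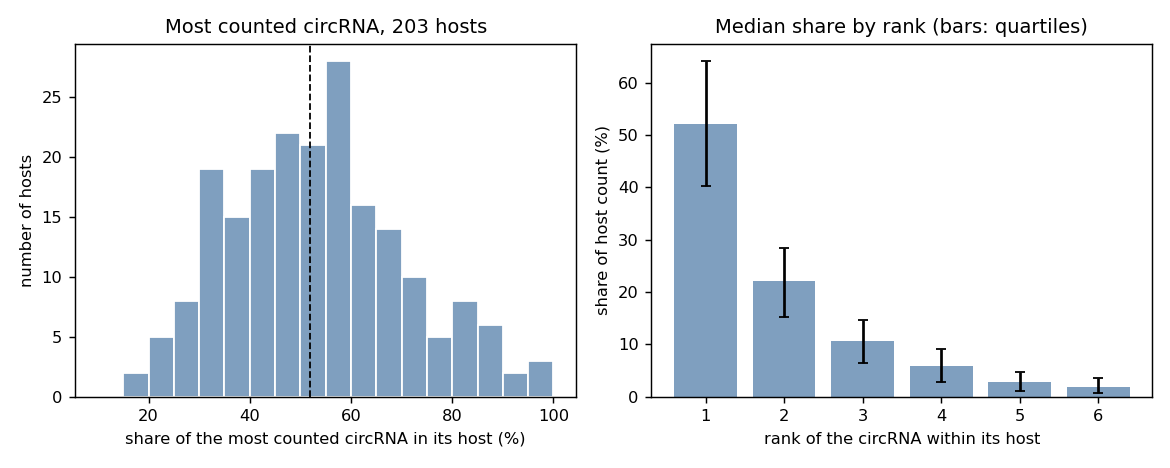
Left, number of hosts (of 203) by the share of the most counted circRNA in its host's summed count over all libraries, in percent, with the median of 52.0% as a dashed line. Right, median share by rank within the host, with quartiles as error bars: the share falls from 52.0% at rank 1 to 22.2% at rank 2 and 5.86% at rank 4.

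The hosts ranged from near-exclusive use of 1 circRNA to an even spread. Erbb2ip, which encodes a scaffold that binds the receptor ErbB2, had 5 circRNAs, of which mmu_circ_0000495 held 98.7% of 2209 counts. Gigyf2, a regulator of translation, had 7 circRNAs and 6070 counts, of which mmu_circ_0000057 held 95.8%, 95.3% and 95.4% in control, 96.0% and 98.6% in AC and 97.6%, 98.3% and 98.3% in UUO. The control libraries were the lowest of the 8 in Gigyf2. The joint test over its tested circRNAs, described below, did not pass (edgeR adjusted p = 0.941 in UUO and 0.981 in AC). Ankib1, a ubiquitin ligase, had 5 circRNAs with 89.9% in mmu_circ_0001311.

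Rasa2, a GTPase-activating protein for Ras, had the highest summed count (7266) and divided it between a pair of its 9 circRNAs, mmu_circ_0001829 (57.6%) and mmu_circ_0001830 (39.1%). The share of mmu_circ_0001829 was 55.1%, 51.6% and 55.9% in control, 56.7% and 63.9% in AC and 66.2%, 58.3% and 59.6% in UUO. All 5 injured libraries lay above the 3 control ones, and the usage test described below did not pass (edgeR adjusted p = 0.999 in UUO and 0.996 in AC). Dtnb, a dystrophin-associated protein, had 14 circRNAs with 70.2% in mmu_circ_0000349. Its share lay between 67.1% and 75.6% in the 8 libraries, with the 3 groups overlapping. In Tasp1, a protease that cleaves MLL proteins, mmu_circ_0001077 held 69.8% of 11 circRNAs' counts, and in Zfp827, a zinc finger protein, mmu_circ_0001698 held 66.6% among 13.

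The hosts with the most circRNAs were not the most even as a rule. Rere, a nuclear receptor corepressor with 21 circRNAs, spread 2980 counts so that mmu_circ_0001295 held 24.2% and mmu_circ_0001305 18.9%. Agtpbp1, a tubulin deglutamylase, had 15 circRNAs and 183 counts, and its leading circRNA held 15.3%, the lowest value of the 302. Ankhd1 and Fer, with 14 each, were likewise spread, at 15.6% and 20.2% with 211 and 213 counts. Nbea, a vesicle-trafficking protein with 17 circRNAs, had 59.0% of its count in mmu_circ_0001132. Ehmt1, a histone H3 methyltransferase with 16, had 54.2% in mmu_circ_0000992. Rabep1, a Rab5 effector, had 15, with 52.3% in the most counted, while the cohesin subunit Stag1, also with 15, had 35.6%.

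The identity of the most counted circRNA held in most hosts when the libraries of a group were pooled. Of 203 hosts, 162 had the same one in UUO and control, 153 in AC and control, and 140 (69.0%) in all 3 groups. The 140 hosts that kept it had a median control share of 59.6% for it and a lead of 39.9 percentage points over the next. The 63 that did not keep it had a share of 37.8% and a lead of 8.77 points. In 20 of the 63 the same new circRNA led in UUO and in AC.

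Single libraries of 1 group differed in their leading circRNA about as often as libraries of different groups. Pairs of control libraries had the same leader in 69.7% to 73.5% of hosts, pairs of UUO libraries in 72.2% to 74.0% and the pair of AC libraries in 67.5%. Pairs of a UUO and a control library had it in 65.8% to 73.5%, and pairs of an AC and a control library in 64.1% to 72.8%. The share of a host's count that would have to move to another circRNA to turn 1 library into another had a median over hosts of 21.2 points on average between control libraries, 20.5 between UUO libraries and 25.8 between the AC libraries. Between UUO and control libraries it was 21.8 points, and between AC and control libraries 23.0 points. The between-group minus within-group distance was 0.935 points for UUO and control (one-sided exact permutation test, p = 0.1, the smallest possible). It was 0.673 points for AC and control (one-sided exact permutation test, p = 0.3).

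The spread of shares between libraries of 1 group was above that of counting error for the median host. The chi-square per degree of freedom of a host's counts across the libraries of a group is near 1 for counting error alone. Its median was 2.72 in control (177 hosts), 2.67 in AC (183 hosts) and 2.35 in UUO (183 hosts). It could not be computed for the rest of the 203 hosts, whose counts per circRNA were too low. In control the circRNA that led over all 8 libraries held a median over hosts of 52.8 ± 3.45% (SD, n = 3), against 53.3 ± 1.95% (SD, n = 3) in UUO and 51.9 ± 2.72% (SD, n = 2) in AC, with overlapping libraries (exact permutation test, p = 0.8 and p = 0.9). The Simpson index, the chance that 2 counts of a host come from the same circRNA, had medians of 0.390 ± 0.0178 (SD, n = 3) in control, 0.393 ± 0.0111 (SD, n = 3) in UUO and 0.380 ± 0.0357 (SD, n = 2) in AC (exact permutation test, p = 0.9 and p = 0.7).

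The hosts whose leader differed between the pooled groups included some with high counts. Glis3, a zinc finger transcription factor of the kidney tubule, was the host with the highest count among the 63. Its mmu_circ_0000942 held 37.6%, 48.2% and 36.0% in control, 29.7% and 24.4% in AC and 24.1%, 28.5% and 32.2% in UUO. Its mmu_circ_0000943 held 26.8%, 21.0% and 27.4% in control, 41.7% and 37.2% in AC and 34.9%, 31.3% and 30.2% in UUO. For both circRNAs every control library lay apart from every injured one, in opposite directions. In the pooled counts mmu_circ_0000942 led in control with 41.1% (exact 95% interval 38.6% to 43.6%, counting error only) and mmu_circ_0000943 in UUO with 32.0% and in AC with 39.6%. The usage test did not pass for either (edgeR adjusted p = 0.999 in UUO and 0.996 in AC, log2 usage 0.36 and 0.64 for mmu_circ_0000943). At the level of the circRNA, mmu_circ_0000943 rose from 2710 ± 414 CPM, counts scaled to library size (SD, n = 3), in control to 4961 ± 482 in UUO (SD, n = 3; log2 0.87, SE 0.19, edgeR adjusted p = 0.0178) and 5710 ± 154 in AC (SD, n = 2; log2 1.08, SE 0.21, edgeR adjusted p = 0.0114). The UUO call ended without UUO replicate 1 (adjusted p = 0.0714), 2 (0.0661) or 3 (0.0768), and the AC call without AC replicate 1 (0.103) or 2 (0.0709). mmu_circ_0000942 had 4383 ± 682 CPM (SD, n = 3) in control, 4367 ± 731 in UUO (SD, n = 3) and 3911 ± 333 in AC (SD, n = 2). With the authors' constant as library size both calls of mmu_circ_0000943 ended (log2 0.61, edgeR adjusted p = 0.217 in UUO, and 0.77, adjusted p = 0.177 in AC), and the AC call also ended when only AC and control were fitted (0.0623).

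Rere changed its leader from mmu_circ_0001305 (22.0% in control) to mmu_circ_0001295 (24.4% in UUO, 30.2% in AC), with libraries of the groups overlapping. In Tbc1d14, a regulator of recycling endosomes, mmu_circ_0001341 led in control with 56.7% and in UUO with 51.7%, and mmu_circ_0012606 led in AC with 46.9%. The share of mmu_circ_0001341 was 34.8% and 33.7% in AC, below the 3 control libraries (48.8%, 57.8% and 62.2%) and the 3 UUO libraries (43.7%, 54.5% and 56.0%). That change did not pass (edgeR adjusted p = 0.996 for usage in AC, unadjusted p = 0.0451). In Psd3 the 2 leading circRNAs exchanged places in UUO and, by a small margin, in AC. mmu_circ_0001682 held 48.6% of the pooled count in control and 33.4% in UUO, and mmu_circ_0001683 held 45.7% and 55.3%. In AC they stood at 47.2% and 47.8%. In Bbs9, a cilium protein, and Canx, the endoplasmic reticulum chaperone calnexin, the leaders in control held 35.1% and 30.7%. In Gas2 and Mllt10 the leaders in all libraries together held 27.9% and 23.6%.

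The test of usage asks whether a circRNA's change differs from that of its host's other tested circRNAs, and the value given is a log2 difference from the host's sum. It could be run on 438 of the selected circRNAs from 143 hosts. In UUO against control no circRNA passed an adjusted p of 0.05 (edgeR diffSpliceDGE, 0 of 438, with 0 percent called among all 705 tested), and 9 of the 438 had an unadjusted p under 0.05 (13 of 705, 1.84%). limma voom and limma on logit shares gave 0 as well. In AC against control 1 of 438 passed, and it was also the only one of all 705 (0.142% called). That circRNA also differed between UUO and AC, where 1 of 705 passed (0.142%).

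The circRNA that passed was mmu_circ_0008223 of Dennd1b, an exchange factor for Rab35 in endocytosis. Its counts were 35 and 19 in AC and 0 in each of the 3 control and 3 UUO libraries. Its share of the Dennd1b count was 18.0% and 17.1% in AC, a pooled 17.7% (exact 95% interval 13.6% to 22.5%). The 0 counts in control allow a share of up to 0.554%, and those in UUO of up to 0.683%. It passed the filter on low counts only through the AC libraries, where it is high, so the tests against groups at 0 describe a circRNA that the filter kept for that pattern. With this limit, edgeR usage gave an adjusted p of 0.000426 against control and 0.000764 against UUO, and 0.000232 and 0.000806 with all circRNAs of at least 1 count. With a group total of 3 counts taken as the floor, its AC level was at least 31.9-fold higher than that of control and at least 29.8-fold higher than that of UUO (edgeR adjusted p = 0.0214 against control, lost without AC replicate 1 at 0.274, AC replicate 2 at 0.0787 or control replicate 3 at 0.0558), while the summed Dennd1b count showed a log2 difference of -0.03 (SE 0.22, edgeR adjusted p = 0.969). The sum counts were 161, 195 and 186 in control, 194 and 111 in AC and 126, 154 and 159 in UUO, with the counts of the groups overlapping. The usage call against control ended without AC replicate 1 (adjusted p = 0.0966) and in limma voom (0.105), and held with limma on logit shares (0.00117). A filter at a summed count of 80 removed the circRNA, which had 54 in all. The other leading circRNAs of Dennd1b, mmu_circ_0000083 and mmu_circ_0000081, held 45.8% and 38.4% in control and 35.7% each in AC.

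The nearest to a call in UUO was mmu_circ_0012733 of Apbb2, an adaptor that binds the amyloid precursor protein. Its share was 9.65%, 5.65% and 11.8% in control, 18.0% and 25% in AC and 30.6%, 31.2% and 28.8% in UUO. The 3 groups did not overlap, with control lowest and UUO highest. The usage difference was 1.85 on the log2 scale in UUO (edgeR adjusted p = 0.0868, unadjusted p = 0.000123) and 1.33 in AC (adjusted p = 0.996, unadjusted p = 0.0121). With circRNAs of at least 80 counts only, the UUO value passed (adjusted p = 0.0388). In limma voom the adjusted p was 0.102 and with logit shares 0.189, and no omission of 1 library brought it under 0.05. The leading circRNA mmu_circ_0001351 went the other way, with 68.4%, 78.2% and 58.0% in control, 63.3% and 60.0% in AC and 41.2%, 42.0% and 52.0% in UUO. As a level, mmu_circ_0012733 was 282 ± 15.5 CPM (SD, n = 3) in control and 744 ± 79.4 (SD, n = 3) in UUO (log2 1.39, SE 0.37, edgeR adjusted p = 0.0426). That call was lost in each of the 6 settings without 1 library (adjusted p from 0.0760 to 0.147), with the authors' constant (log2 1.13, adjusted p = 0.168) and with no filter beyond a count of 1 (0.215).

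After Apbb2, the circRNAs with the lowest unadjusted p for usage in UUO were in Ash1l, a histone H3 methyltransferase, Fut8, the fucosyltransferase that adds core fucose to N-glycans, Bbs9 and Agap1, a GTPase-activating protein for Arf. None of these 4 passed (edgeR adjusted p = 0.999 each). mmu_circ_0001757 of Bbs9 held 23.0%, 50% and 25% in control, 28.7% and 21.2% in AC and 19.8%, 20% and 16.9% in UUO, so that UUO lay lowest and 1 control library far above the others. mmu_circ_0009063 of Agap1 held 9.63% of the pooled count in control and 21.7% in UUO, with overlapping libraries. mmu_circ_0010883 of Ash1l held 9.34% and 1.33%, and mmu_circ_0004207 of Fut8 12.9% and 2.99%, the latter with overlapping libraries. Without control replicate 2, mmu_circ_0010883 no longer entered the usage test. Its p thus describes a circRNA kept through a library of control, where its share was higher than in UUO. The joint test over all tested circRNAs of a host covered 143 of the selected hosts. In UUO edgeR called 0 of 143 (0 percent called of all 268, limma voom 0) and 5 had an unadjusted p under 0.05. These were Apbb2 (adjusted p = 0.0874 in edgeR, 0.0309 with circRNAs of at least 80 counts), Wdr7, Ubn2, Zfp148 and Glis3 (edgeR adjusted p = 0.889 each). In AC edgeR called 1 of 143 (0.373% called of all 268), Dennd1b at an adjusted p of 0.0020, lost without AC replicate 1 (0.153) or AC replicate 2 (0.0514), with circRNAs of at least 80 counts (0.969) and in limma voom (0.235). That joint test included mmu_circ_0008223, which passed the filter on low counts only through AC, where it is high. Its p thus describes a host with a circRNA kept for that pattern.

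**Figure D3:**
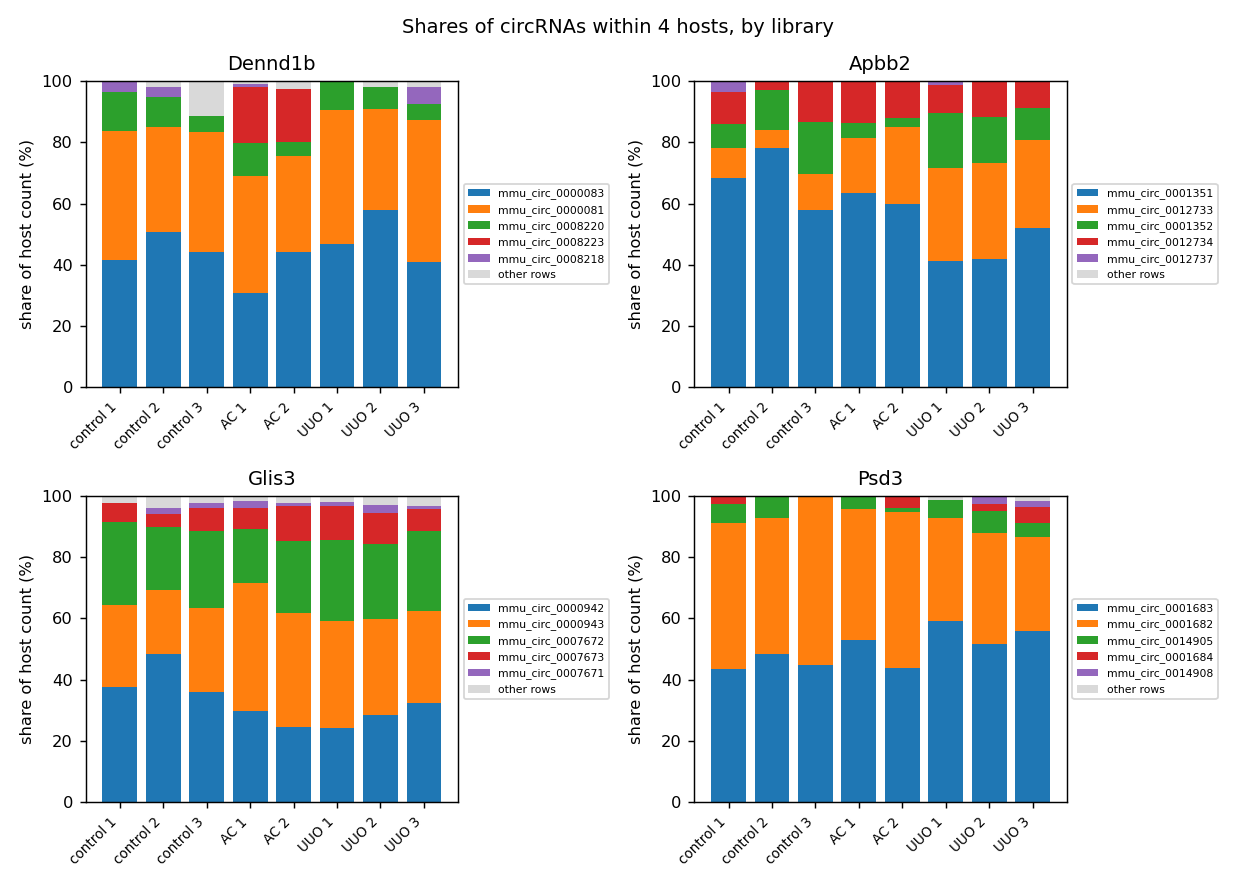
Share of each circRNA in the summed count of its host, in percent (y axis), for Dennd1b, Apbb2, Glis3 and Psd3 in the 8 libraries (x axis); colours mark the 5 most counted circRNAs, grey all others. mmu_circ_0008223 of Dennd1b appears in the 2 AC libraries at 18.0% and 17.1%, and mmu_circ_0012733 of Apbb2 takes about 30% in the UUO libraries.

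More host sums than shares passed a test, which does not show that shares were stable. Among all hosts tested, 18.8% of sums in UUO and 15.1% in AC had an unadjusted p under 0.05 (edgeR). Among all circRNAs tested for usage, only 1.84% and 2.7% did (edgeR diffSpliceDGE), so that test may miss changes. Summed over all circRNAs of a host, 276 of the 302 hosts could be tested. In UUO against control 20 of the 276 passed, 9 higher and 11 lower, among 6.23% called of all 1203 hosts tested (3.99% higher, 2.24% lower). In AC against control 12 passed, 4 higher and 8 lower, among 3.82% called (2.33% higher, 1.5% lower). The median log2 change of the 276 sums was -0.10 in UUO and -0.09 in AC, against 0.02 and -0.00 over all hosts. Arhgap10, Arhgap32, Tdrd3, Cpeb3 and Smarca2 were lower in both comparisons and Arhgap26, Ezh2, Psd3 and Myo9a higher in both, and the comparisons share the control libraries.

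At the level of single circRNAs, 515 of the 2090, from 220 hosts, passed the filter on low counts. In UUO 13 of the 515 passed the test, 6 higher and 7 lower, among 4.35% called of all 1471 tested (2.86% higher, 1.5% lower). In AC 14 passed, 4 higher and 10 lower, among 3.33% called (1.9% higher, 1.43% lower). The shares among the 515 were 2.52% and 2.72%, below these backgrounds. Of the 13 in UUO, 11 came from hosts whose sum also passed, and the others were mmu_circ_0012733 of Apbb2 and mmu_circ_0001697 of Zfp827. Of the 14 in AC, 11 did, and the others were in Glis3, Dennd1b and Slc4a4. When the constant that the authors used per library replaced the library size, the median log2 change over all circRNAs was -0.26 in UUO and -0.34 in AC. The calls were then 1 higher and 7 lower in UUO and 1 higher and 12 lower in AC, and for host sums 4 higher and 9 lower in UUO and 1 higher and 8 lower in AC.

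Inside the hosts whose sum passed, the tested circRNAs mostly had log2 changes of 1 sign. In UUO 18 such hosts had 2 or more tested circRNAs, and 62 of their 67 tested circRNAs had the sign of the sum, in 13 hosts all of them. In AC 40 of 40, in 11 hosts, did. These circRNAs make up the sum, so this is a description. Among all 143 selected hosts with 2 or more tested circRNAs, whether the sum passed or not, every tested circRNA had the same sign in 64 hosts in UUO and 67 in AC. Over the 84 hosts in which the leading circRNA and the pooled remainder each had at least 30 counts in each group, the log2 change of the leader and that of the rest had a Pearson correlation of 0.57 and a Spearman correlation of 0.51 in UUO, and 0.55 and 0.49 in AC. These are across hosts of the same libraries, which are not independent replicates. Leader and rest had the same sign in 54 of 84 hosts (64.3%) in UUO and 60 (71.4%) in AC. They differed by over 1 log2 unit in 5 hosts in UUO (Apbb2, Fam126a, Gigyf2, Npepps and Rbm33) and in 6 in AC (Ep300, Npepps, Prrc2b, Sipa1l1, Smad4 and Tbc1d14), named here after their values were seen.

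**Figure D4:**
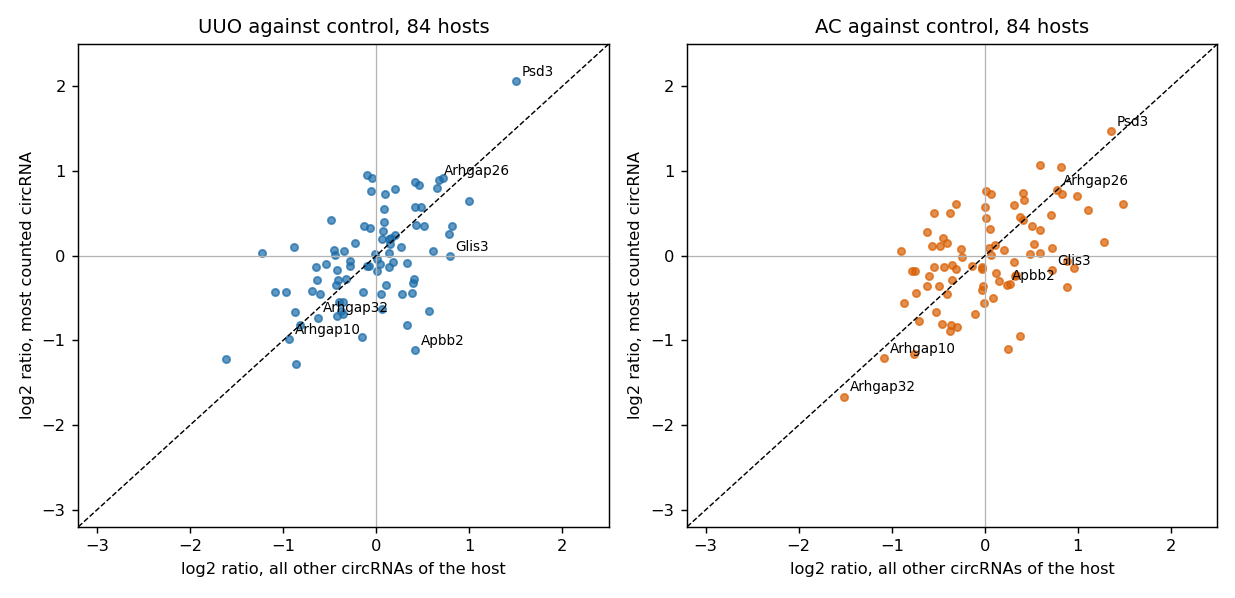
Log2 ratio of injured to control for the most counted circRNA of a host (y axis) against that of all its other circRNAs summed (x axis), in UUO (left) and AC (right); each point is 1 of 84 hosts and the dashed line marks equal change. Psd3 lies high in both panels, above the line in UUO and near it in AC. Arhgap10 lies low near the line in both panels, and Apbb2 lies below the line in UUO.

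Regulators of small GTPases included Arhgap10, the host with the highest count among those whose sum passed. Of 17 such hosts tested, 2 rose and 2 fell in UUO and in AC, and the median log2 change was -0.26 and -0.03. In such counts of hosts, here and for the lists below, rose and fell mean that the sum passed the test. Over all 1203 hosts tested, 6.23% passed in UUO and 3.82% in AC. The lists are too short for their counts to be told from these shares. Arhgap10, a GTPase-activating protein, had sums of 744, 1029 and 1201 counts in control, 370 and 368 in AC and 468, 459 and 495 in UUO. Every injured library lay below every control library. Scaled to library size, control had 19387 ± 2965 CPM (SD, n = 3), UUO 9848 ± 719.9 CPM (SD, n = 3) and AC 8648 ± 1143 CPM (SD, n = 2). It fell by 0.98 on the log2 scale in UUO (SE 0.13, edgeR adjusted p = 0.000107) and by 1.17 in AC (SE 0.15, edgeR adjusted p = 8.37e-05), and both calls held without any 1 library. The share of its leading circRNA mmu_circ_0001692 was 56.7%, 61.2% and 59.7% in control, 57.6% and 57.1% in AC and 60.0%, 55.1% and 60.4% in UUO, with the groups overlapping. The next, mmu_circ_0001691, held 21.0% in control, 19.1% in AC and 20.7% in UUO. The 3 circRNAs mmu_circ_0001692, mmu_circ_0001691 and mmu_circ_0014982 had log2 changes of -0.97, -0.97 and -0.97 in UUO (edgeR adjusted p = 0.00459, 0.0298 and 0.0451). In AC they had -1.18, -1.27 and -1.04 (edgeR adjusted p = 0.00304, 0.0220 and 0.0846). The call of mmu_circ_0001692 ended only without UUO replicate 2 (adjusted p = 0.0613) and without AC replicate 1 (0.0674). That of mmu_circ_0001691 ended without any 1 UUO library (0.0845 to 0.155), either AC library (0.185 and 0.0552) or control replicate 3 (0.139 in UUO, 0.0708 in AC), and that of mmu_circ_0014982 in UUO held in 1 of 6 such settings (up to 0.182). With only AC and control fitted, the AC call of mmu_circ_0001691 ended (0.1).

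Arhgap32, a GTPase-activating protein of the cell cortex, had sums of 374, 713 and 628 in control, 172 and 145 in AC and 324, 342 and 338 in UUO. AC was lowest, and UUO lay below control. The sum fell by 1.58 in AC (SE 0.18, edgeR adjusted p = 1.05e-05, held without any 1 library) and by 0.66 in UUO (SE 0.15, edgeR adjusted p = 0.00909). The UUO call ended without UUO replicate 3 (adjusted p = 0.0776) or control replicate 3 (0.0644). UUO was higher than AC by 0.92 (edgeR adjusted p = 0.0457, 1 of 1203 hosts, 0.0831% called), a call that ended without any 1 of the 5 libraries (adjusted p from 0.0638 to 0.560), with the authors' constant (0.957), with DESeq2 size factors (0.0823) and with a summed count of at least 80 (0.0921). Of its 5 tested circRNAs 4 passed the test in AC, all lower: mmu_circ_0001764 by 1.63, mmu_circ_0001765 by 1.21, mmu_circ_0015520 by 1.75 and mmu_circ_0001763 by 1.61 on the log2 scale (edgeR adjusted p = 0.00121, 0.0182, 0.0228 and 0.0466). The fifth, mmu_circ_0015524, had 0 counts in AC. The share of mmu_circ_0001764 was 43.0%, 48.4% and 42.7% in control, 44.8% and 40.0% in AC and 39.8%, 41.8% and 48.2% in UUO, with the groups overlapping. Without any 1 library the call of mmu_circ_0001764 held. mmu_circ_0001765 missed the threshold without AC replicate 1 (0.106), AC replicate 2 (0.0959) or control replicate 3 (0.0558), and mmu_circ_0015520 without the same libraries (0.103, 0.174 and 0.0945). mmu_circ_0001763 missed it without AC replicate 1 (0.399) or any control library (0.0557 to 0.0945). With only AC and control fitted, mmu_circ_0001765 (0.0791), mmu_circ_0015520 (0.0795) and mmu_circ_0001763 (0.158) missed the threshold.

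Psd3, an exchange factor for Arf6, went the other way. Its sums were 78, 95 and 74 in control, 157 and 205 in AC and 232, 286 and 279 in UUO. Every injured library lay above every control library. Scaled to library size, the sum was 4297 ± 1373 CPM in AC (SD, n = 2) and 5501 ± 439.6 CPM in UUO (SD, n = 3), a difference that did not pass (log2 0.36, edgeR adjusted p = 0.792). It rose by 1.76 in UUO (SE 0.21, edgeR adjusted p = 3.78e-05), a call that held without any 1 library. In AC it rose by 1.40 (SE 0.23, edgeR adjusted p = 0.00105), which ended without AC replicate 2 (0.0670). Both leading circRNAs rose: mmu_circ_0001683 from 818 ± 119 CPM (SD, n = 3) to 3403 ± 111 in UUO (SD, n = 3) and 2290 ± 474 in AC (SD, n = 2), with log2 changes of 2.06 and 1.48 (edgeR adjusted p = 0.000112 and 0.00736). mmu_circ_0001682 rose by 1.24 in UUO and 1.39 in AC (edgeR adjusted p = 0.0263 and 0.0220). In UUO mmu_circ_0001683 passed without any 1 library, whereas mmu_circ_0001682 passed in 1 of 6 such settings (adjusted p up to 0.120). In AC both were lost without AC replicate 2 (0.0930 and 0.382) or control replicate 3 (0.0512 and 0.0866). The share of mmu_circ_0001683 was 43.6%, 48.4% and 44.6% in control, 52.9% and 43.9% in AC and 59.1%, 51.7% and 55.9% in UUO. UUO lay above control in every library, and the usage test did not pass (log2 usage 0.34, edgeR adjusted p = 0.999). With the authors' constant as library size the AC sum (log2 1.08, edgeR adjusted p = 0.0568), mmu_circ_0001683 in AC (1.14, 0.0870) and mmu_circ_0001682 in UUO (0.97, 0.122) and AC (1.05, 0.141) missed the threshold. With only AC and control fitted, both circRNAs did (0.0623 and 0.101).

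Arhgap26, a GTPase-activating protein that acts on Cdc42, had sums of 163, 208 and 170 in control, 253 and 259 in AC and 276, 293 and 309 in UUO. Every injured library lay above every control library. Scaled to library size, AC had 6008 ± 915.7 CPM (SD, n = 2) and UUO 6071 ± 262 CPM (SD, n = 3). It rose by 0.77 in UUO (SE 0.17, edgeR adjusted p = 0.00775) and 0.75 in AC (SE 0.18, edgeR adjusted p = 0.0202). The UUO call ended without control replicate 3 (0.0676), and the AC call without AC replicate 1 (0.0577), AC replicate 2 (0.326) or control replicate 3 (0.112). Its leading circRNA mmu_circ_0000865 kept 54.7% in control, 54.7% in AC and 58.4% in UUO. As a level that circRNA rose by 0.87 in UUO (edgeR adjusted p = 0.0350), passing in 1 of 6 settings without 1 library (adjusted p up to 0.159). With the authors' constant as library size the sum missed the threshold in UUO (log2 0.51, edgeR adjusted p = 0.266) and AC (0.45, 0.468), as did mmu_circ_0000865 in UUO (0.60, 0.292), and with only AC and control fitted the AC sum did (0.0935).

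**Figure D5:**
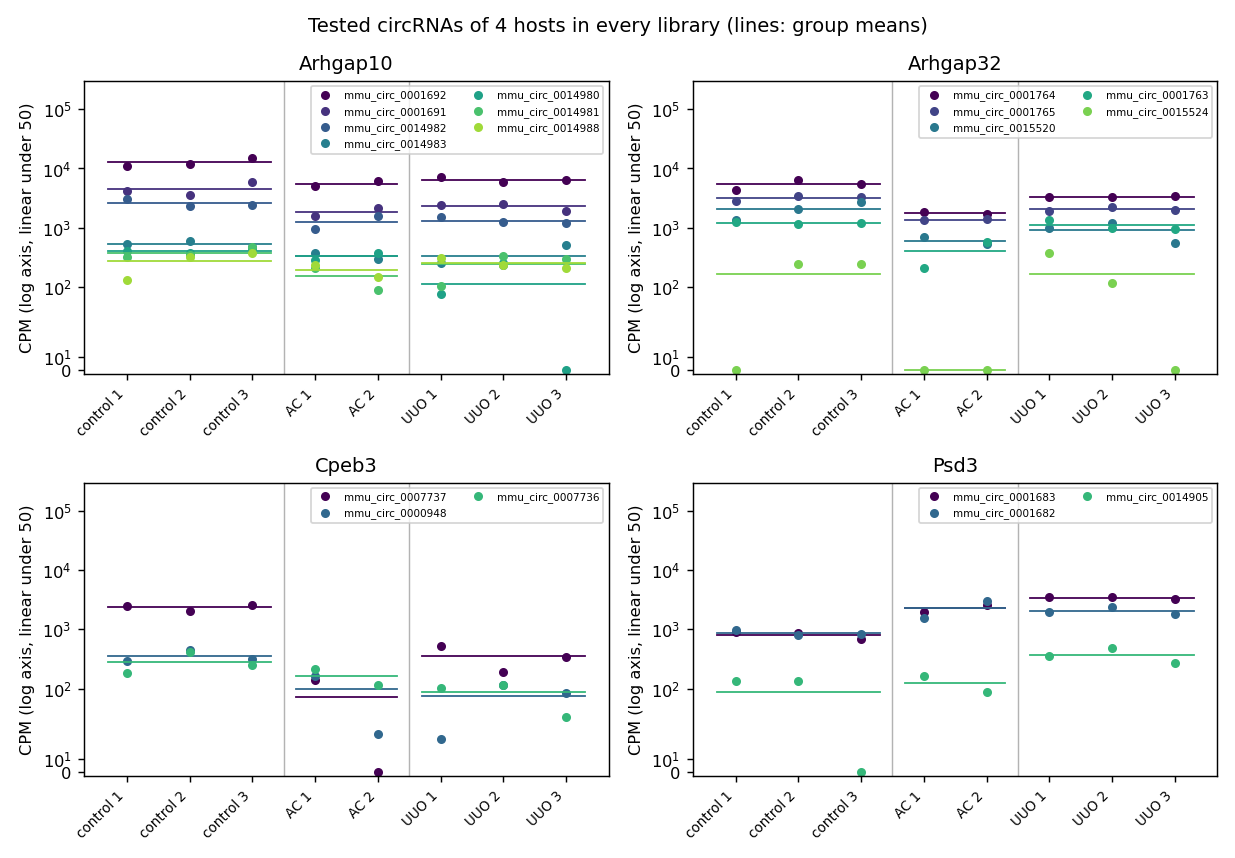
CPM of every tested circRNA of Arhgap10, Arhgap32, Cpeb3 and Psd3 in the 8 libraries, on a log axis that is linear under 50; points are libraries and horizontal lines group means. The leading circRNAs of Arhgap10, Arhgap32 and Cpeb3 lie lower in AC and UUO than in control, and those of Psd3 higher.

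RNA-binding and translation hosts that passed were both lower. Of 12 tested, 2 fell in UUO and in AC, with a median log2 change of -0.37 and -0.46. Cpeb3, which binds cytoplasmic polyadenylation elements and represses translation, had sums of 126, 171 and 161 in control, 25 and 7 in AC and 40, 22 and 29 in UUO. The control libraries lay far above the injured ones. The sum fell by 2.24 in UUO (SE 0.33, edgeR adjusted p = 0.000321) and by 3.03 in AC (SE 0.41, edgeR adjusted p = 0.000137), and both calls held without any 1 library. Its leading circRNA mmu_circ_0007737 had 95, 108 and 124 counts in control, 6 and 0 in AC and 21, 8 and 16 in UUO. As a level it passed the test in both injuries. In UUO its log2 change was -2.75 (edgeR adjusted p = 0.00230, up to 0.0381 without 1 library). In AC, where 1 library held 0 counts, its log2 change ran from -9.71 to -4.07 without 1 library. Its share was 75.4%, 63.2% and 77.0% in control, 52.5%, 36.4% and 55.2% in UUO and 24.0% and 0% in AC. Control lay above UUO and UUO above AC. The 2 AC libraries held 25 and 7 Cpeb3 counts in all, and the usage test gave an unadjusted p of 0.00801 and an adjusted p of 0.996 in AC (edgeR; log2 usage -1.78). In UUO it was -0.20 (edgeR adjusted p = 0.999). The joint test of Cpeb3 shares in AC had an unadjusted p of 0.00201 and an adjusted p of 0.203 (edgeR).

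Tdrd3, a Tudor-domain protein that reads methylated arginine, had sums of 119, 120 and 143 in control, 45 and 20 in AC and 56, 40 and 59 in UUO. All injured libraries lay below control. It fell by 1.24 in UUO (SE 0.29, edgeR adjusted p = 0.0116) and by 1.77 in AC (SE 0.34, edgeR adjusted p = 0.00438). The UUO call ended without UUO replicate 2 (0.0780), UUO replicate 3 (0.0589) or control replicate 3 (0.0535), and the AC call without AC replicate 2 (0.0746). Its mmu_circ_0000561 fell by 1.32 in UUO and 1.58 in AC (edgeR adjusted p = 0.0311 and 0.0327) and held 59.7% of the host in control, 54.8% in UUO and 66.2% in AC. Each of these calls held in 1 setting without 1 library (adjusted p up to 0.155 in UUO and 0.213 in AC). With only AC and control fitted, the AC call of the circRNA ended (0.0992).

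Chromatin and transcription hosts moved in both directions. Of 27 tested, 2 rose and 1 fell in UUO, and 1 rose and 1 fell in AC, with a median log2 change of 0.01 and -0.10. Ezh2, the methyltransferase of Polycomb complex PRC2, had sums of 114, 260 and 168 in control, 318 and 204 in AC and 270, 224 and 338 in UUO. In raw counts AC replicate 2 and UUO replicate 2 lay below control replicate 2. It rose by 0.73 in UUO (SE 0.19, edgeR adjusted p = 0.0281) and 0.80 in AC (SE 0.21, edgeR adjusted p = 0.0422). Each call ended in 4 settings without 1 library, UUO replicate 1 or 3, AC replicate 1 or 2, and control replicate 1 or 3 in both (adjusted p from 0.140 to 0.166 in UUO and from 0.0833 to 0.394 in AC). With the authors' constant as library size both ended (log2 0.41, edgeR adjusted p = 0.478 in UUO, and 0.45, 0.554 in AC), and the AC call ended with only AC and control fitted (0.107). Its mmu_circ_0001471 held 82.7% in control, 78.8% in UUO and 72.2% in AC, and its log2 ratio in AC was 0.61 against 1.48 for the other Ezh2 circRNAs summed. Smarca2, the BRM ATPase of SWI/SNF complexes, had sums of 60, 137 and 74 in control, 19 and 19 in AC and 35, 26 and 37 in UUO. All injured libraries lay below control. It fell by 1.35 in UUO (SE 0.31, edgeR adjusted p = 0.0118) and by 1.95 in AC (SE 0.38, edgeR adjusted p = 0.00438). The UUO call ended without UUO replicate 2 (0.0759), UUO replicate 3 (0.0604) or control replicate 2 (0.0536), and the AC call without AC replicate 1 (0.0780). The Glis3 sum rose by 0.49 in UUO (SE 0.11, edgeR adjusted p = 0.0117), lost without UUO replicate 1 (0.0690), UUO replicate 3 (0.0745) or control replicate 3 (0.0693). The Glis3 call also ended with the authors' constant as library size (log2 0.23, edgeR adjusted p = 0.622) and with no filter beyond a count of 1 (0.0811).

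Among 13 cytoskeleton and adhesion hosts tested, 2 rose in UUO and 1 in AC. Myo9a, an unconventional myosin with a GTPase-activating domain, had sums of 21, 10 and 24 in control, 59 and 48 in AC and 70, 52 and 58 in UUO. All injured libraries lay above control. It rose by 1.75 in UUO and 1.74 in AC (SE 0.38 and 0.41, edgeR adjusted p = 0.00800 and 0.0179). The calls ended without UUO replicate 1 (0.0525), AC replicate 1 (0.0874) or AC replicate 2 (0.0773), and in AC with only AC and control fitted (0.0579). Clasp2, a microtubule plus-end protein, had sums of 4, 4 and 4 in control, 11 and 18 in AC and 39, 23 and 18 in UUO, and rose by 2.80 in UUO (SE 0.59, edgeR adjusted p = 0.00651, 0.0627 without UUO replicate 1). Clasp2 passed the filter on low counts only through the injured libraries, where it is high.

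Of 17 kinase and phosphatase hosts tested, 1 rose and 1 fell (Stk39) in UUO, and in AC edgeR called 0, DESeq2 called 1 and 4 had an unadjusted p under 0.05. Stk39, the SPAK kinase that activates sodium chloride cotransporters of the distal tubule, had sums of 318, 536 and 472 in control, 282 and 286 in AC and 253, 306 and 277 in UUO. It fell by 0.57 in UUO (SE 0.15, edgeR adjusted p = 0.0281), and its mmu_circ_0001028 by 0.64 (edgeR adjusted p = 0.0499), with shares of 69.8% in control and 65.6% in UUO. Without 1 library, the Stk39 sum passed in 2 of 6 settings (adjusted p up to 0.166) and its circRNA in 1 (up to 0.182). The Stk39 sum missed the threshold with the authors' constant (log2 -0.85, edgeR adjusted p = 0.0640). Its circRNA missed it with that constant (-0.94, 0.0711), with no filter beyond a count of 1 (0.0813) and with only UUO and control fitted (0.0597).

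Of the 17 tested hosts on the list for vesicle trafficking, which does not hold Tbc1d14, 1 fell in UUO. This was Kif16b, a kinesin of early endosomes, by 1.08 (SE 0.31, edgeR adjusted p = 0.0443, passing in 1 of 6 settings without 1 library and 0.222 without UUO replicate 3). In AC edgeR and DESeq2 called 0 of the 17, and 1 had an unadjusted p under 0.05. For the 6 tested hosts on the list for transport and metabolism, which does not hold the channel Kcnt2, edgeR and DESeq2 called 0 in either comparison, and 1 had an unadjusted p under 0.05 in each. That host was Slc4a4, the basolateral sodium bicarbonate cotransporter of the proximal tubule, with edgeR adjusted p = 0.223 in UUO and 0.280 in AC for its sum. Its mmu_circ_0012844 had 33, 38 and 30 counts in control, 10 and 4 in AC and 23, 15 and 21 in UUO, so that AC lay lowest and UUO below control. That circRNA fell by 2.02 in AC (SE 0.51, edgeR adjusted p = 0.0400), a call lost without any 1 library (adjusted p from 0.0660 to 0.261), with no filter beyond a count of 1 (0.0773) or with only AC and control fitted (0.104), and its share went from 51.3% in control to 21.9% in AC, with 50.9% in UUO. For the 8 tested hosts on the list for the ubiquitin system, which does not hold Ankib1, edgeR called 0 in UUO and 0 in AC, DESeq2 called 1 in UUO, and 2 and 1 had an unadjusted p under 0.05. Their median log2 change was -0.57 in UUO and 0.08 in AC.

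Of the hosts on none of these lists, 1300010F03Rik was lower in UUO by 1.34 (SE 0.27, edgeR adjusted p = 0.00517, held without any 1 library). Its sums were 102, 199 and 116 in control and 45, 57 and 51 in UUO, with no overlap. Gas2, Canx and Tbc1d14 were lower in UUO by 0.90, 0.82 and 0.60 (edgeR adjusted p = 0.0281, 0.0351 and 0.0399). Without 1 library these passed in 3, 2 and 1 of 6 settings (adjusted p up to 0.140, 0.147 and 0.157). Gucy1a2, a subunit of soluble guanylate cyclase, was higher in UUO by 1.5 (SE 0.35, edgeR adjusted p = 0.0126, 0.0864 without UUO replicate 3). Its mmu_circ_0001741 rose by 1.89 (edgeR adjusted p = 0.0426) from 12, 3 and 16 counts in control to 31, 37 and 44 in UUO, a call lost without any 1 library (adjusted p from 0.0531 to 0.171). Kcnt2, a sodium-activated potassium channel, had 2, 0 and 6 counts in control, 2 and 23 in AC and 22, 36 and 44 in UUO, and passed the filter on low counts only through the injured libraries (log2 3.65, SE 0.82, edgeR adjusted p = 0.00930, 0.0586 without UUO replicate 3). In Zfp827 the second circRNA mmu_circ_0001697 fell by 1.23 in UUO (edgeR adjusted p = 0.0278, passing in 1 of 6 settings without 1 library and up to 0.135), and its share went from 19.2% to 11.3%. With the authors' constant as library size Tbc1d14 (log2 -0.87, edgeR adjusted p = 0.0661), Gucy1a2 (1.27, 0.0535) and mmu_circ_0001741 (1.68, 0.0806) missed the threshold, and Tbc1d14 did with no filter beyond a count of 1 (0.0811).

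In AC, Pms1, a mismatch repair protein, had sums of 110, 119 and 188 in control, 42 and 36 in AC and 84, 95 and 78 in UUO. Both AC libraries lay lowest. It fell by 1.60 (SE 0.31, edgeR adjusted p = 0.00438, 0.0621 without AC replicate 1). Its mmu_circ_0000038 fell by 1.56 (edgeR adjusted p = 0.0179) and held 90.6% of the host in control and 91.0% in AC. That call ended without AC replicate 1 (0.0988), AC replicate 2 (0.0942) or control replicate 3 (0.0558). Ankib1 fell by 0.84 (SE 0.22, edgeR adjusted p = 0.0363, passing in 1 of 5 settings without 1 library and 0.223 without AC replicate 1), and its leading circRNA held 89.7% in control and 89.2% in AC. Dmxl2, a subunit of the complex that regulates the vacuolar proton pump, had 7, 30 and 34 counts in control and 0 and 1 in AC. The ratio of control to AC per library total was 38.3 (exact binomial 95% interval 6.66 to 1535, counting error only; edgeR adjusted p = 0.0179, lost without AC replicate 1, AC replicate 2 or control replicate 3, up to 0.181). Dmxl2 passed the filter on low counts only through libraries other than AC. With only AC and control fitted, mmu_circ_0000038 (0.0760) and the Ankib1 sum (0.131) missed the threshold, and the Ankib1 sum did with a summed count of at least 80 (0.0527).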

How the data were processed

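CircRNA counts of 8 kidney libraries were used as the authors deposited them: whole-number counts per circRNA, without normalization, beside a signal table holding the same counts, each divided by a library constant of the authors. That constant served only as an alternative library size. The tools HISAT2 and StringTie and the build mm9 appear in the submitters' processing notes. Neither the caller of back-splice junctions nor its settings are given in the sources used here, nor how reads shared by circRNAs of 1 host were counted. Linear host RNA is not analysed here. The 32 entries with no gene name held 1.63% of the counts, and 10 had a number as name.

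Counts, and their sums per host, were tested with edgeR 4.0.16 (quasi-likelihood, TMM, filterByExpr with a minimum count of 10 and total of 15) in 1 fit of all 8 libraries, and usage with diffSpliceDGE. P-values were adjusted by Benjamini-Hochberg over the whole table, threshold 0.05. CPM are TMM-scaled. SE is the log2 change over the square root of F. Exact permutation tests over libraries were two-sided, except that of the share distances, which was one-sided for a larger distance between groups. Intervals and floors (3 counts) cover counting error only. Alternatives used DESeq2 1.42.0, limma 3.58.1, other filters and sizes, a replicate block and omission of each library. The tests were tried on simulated data. Named were the 10 hosts with most counts, the 10 with most circRNAs, all calls, 10 hosts whose leading circRNA differed between groups, and, where no usage test passed, the 5 with the lowest p. The members, the role lists and these rules were chosen with earlier results of these data known. The share distances, the comparison of leader and rest, the test of host sums between UUO and AC and the logit-share test were added after seeing the data. Some hosts that these rules name are not reported here.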

Additional observations from a re-analysis of the deposited data

Results flagged for a closer look

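The direct comparison of the 2 injuries differed for 3 results. The usage of mmu_circ_0008223 within Dennd1b was higher in AC than in UUO (edgeR diffSpliceDGE, adjusted p = 0.000764), with 35 and 19 counts in AC and 0 in every UUO library, and the call ended without AC replicate 1 (adjusted p = 0.155) and in limma voom (0.341). This circRNA passed the filter on low counts only through AC, where it is high, so the p describes a circRNA kept for that pattern. The joint test over all Dennd1b circRNAs also differed between UUO and AC (edgeR, adjusted p = 0.00311), and was lost without AC replicate 1 (0.130), AC replicate 2 (0.0596) or UUO replicate 2 (0.0541), with no filter beyond a count of 1 (0.151), with circRNAs of at least 80 counts (0.951) and in limma voom (0.862). That joint test included mmu_circ_0008223, so the same limit applies to it. The summed Arhgap32 count was higher in UUO than in AC (log2 0.92, edgeR, adjusted p = 0.0457), a call that ended without any 1 of the 5 libraries (adjusted p from 0.0638 to 0.560), with the authors' constant as library size (0.957), with DESeq2 size factors (0.0823) and with a summed count of at least 80 (0.0921).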

How the results depend on the processing

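The 13 UUO calls at circRNA level became 8 with the authors' constant as library size, 27 with DESeq2 and 2 to 15 without 1 library; the 14 AC calls became 4 with only the 2 groups compared and 4 to 15 without 1 library. The 20 UUO host sums became 13 with the constant and 7 to 23 without 1 library, the 12 AC host sums 5 to 12. Usage in UUO gave 1 call, and the joint test of a host 1, with circRNAs of at least 80 counts. Usage in AC and between UUO and AC gave 0 calls with that filter or limma voom and 0 to 1 without 1 library; the joint test in AC gave 0 with the filter, voom or the block and 0 to 1 without 1 library. With at least 100 counts per group the leading circRNA was kept in 71 hosts in UUO and 67 in AC, and without 1 library in 108 to 159 and 97 to 152; fewer hosts then enter. Members' share in AC minus control was -1.77 points with hosts of 8 or more circRNAs and -3.21 to -2.30 without 1 library, in UUO -2.90 to -2.00. The median leading share reversed to -1.65 points in UUO with hosts of 8 or more and to 1.62 in AC with 100 counts (-0.57 to 1.79 and -4.14 to 2.38 without 1 library). The concentration in AC reversed to 0.0029 with hosts of 4 or more and 0.0063 with 100 counts (-0.0297 to 0.0077 without 1 library, in UUO -0.0060 to 0.0109). The cause was not tested. Among single items under these settings 706 kept their side of the threshold, 255 lost it and 2 gained it, and none reversed.

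Same-numbered libraries of different groups had correlations of -0.113 to 0.0417. The values were centred within each group, which ties the correlations to one another. They therefore cannot decide whether replicate numbers pair the samples. With the replicate number as a block, 3 UUO and 2 AC circRNA levels, 13 and 6 host sums and the same single usage call in AC passed.

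Depth limits the shares: the median host had 224 counts over 8 libraries, 41.6% of the circRNAs had 10 counts or fewer, and 3 counts in 1 library were worth 56.6 to 87.5 CPM.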
